A study of Homo sapiens with 26 samples.

Results

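The BET proteins and the P-TEFb elongation machinery were followed through 7 genes, namely BRDT, BRD2, BRD3, CDK9, CCNT1, CCNT2 and HEXIM1, out of 26485 gene symbols per table. The genes were taken by symbol, and all 7 were listed in each of the 5 tables of normalised values. RNA had been sequenced from 3 human esophageal squamous cell carcinoma (ESCC) lines, KYSE180, TE6 and KYSE150, as 26 libraries in 11 groups. KYSE180 was used in 2 experiments: 3 siCont(BRDT-KD) and 3 siBRDT libraries, and 2 siCont(TP63-KD) and 2 siTP63 libraries. TE6 had 2 siCont, 2 siBRDT and 2 siTP63 libraries in 1 table, so both TE6 comparisons share their controls. KYSE150 had 2 siCont and 2 siTP63 libraries, and a separate experiment with 3 control (cont) and 3 BRDT overexpression (BRDT-OE) libraries. Knockdown cells were taken 48 h after transfection of the small interfering RNA (siRNA), and the study's methods do not say which siRNA of several, or which pool, was used for sequencing. Each line is a single culture model, and nothing in the labels says that replicates came from separate cultures, so p-values measure the spread between these samples, which may be technical. In BRDT-OE, reads of the plasmid's BRDT and of the cells' own copy cannot be told apart. Library totals ran from 7582089 to 19372441 reads.

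BET proteins carry a pair of bromodomains that bind acetylated histone tails, and they help to bring the positive transcription elongation factor P-TEFb to genes. P-TEFb is the kinase CDK9 with cyclin T1 (CCNT1) or cyclin T2 (CCNT2), and it releases RNA polymerase II from its pause near the start of genes. HEXIM1 holds P-TEFb inactive in the 7SK ribonucleoprotein and is widely used as a marker gene of BET inhibition. BRD2 and BRD3 are made in most tissues, whereas BRDT is normally confined to male germ cells. In squamous epithelium, TP63 (p63) drives the lineage program that the study set beside BRDT. The squamous markers fitted the label of the lines, since 6 of 6 (TP63, KRT5, KRT6A, KRT17, SFN and DSG3) had reads in every library. Of the 6 germ-cell markers other than BRDT, TNP1 was at 0 in every group, and the summed level of all 6 was at most 0.453 RPM (reads scaled to a common library total) in any library.

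The sequences listed among the study's siRNAs are shown because they decide which member was hit. Each is the sense strand as listed, 5′ to 3′. Capitals mark bases 12 to 18, which face bases 2 to 8, the seed, of the guide strand.
Exon 2 of BRDT, the siRNA numbered #2: caaaucaacuuCAGUAUCu
Exon 7 of BRDT, the siRNA numbered #3: gaaaauggauaACCAAGAa
Exon 8 of BRDT, the siRNA numbered #4: guagagagaacACUAAUGa
Exon 10 of BRDT, the siRNA numbered #18: gagauaaacuuGGGCGAGu
Exon 13 of TP63, the siRNA numbered #5: caucaugucugGACUAUUu
Exon 7 of TP63, the siRNA numbered #8: cgacagucuugUACAAUUu
Non-targeting siRNA #5: ugguuuacaugUCGACUAa

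All 4 BRDT sequences matched the plus strand of BRDT exactly (chr1:91949343-92014426 in hg38, GENCODE release 44) and no other annotated gene. Sequence #2 lay in coding exon 2 (chr1:91962840-91962858), #3 in exon 7 (chr1:91978170-91978188), #4 in exon 8 (chr1:91979663-91979681) and #18 in exon 10 (chr1:91981008-91981026). The 2 TP63 sequences matched only TP63, in coding exon 13 for #5 (chr3:189890812-189890830) and exon 7 for #8 (chr3:189867849-189867867). The non-targeting sequence had no exact match. The closest approach of any sequence to a member that it was not meant for was BRDT #4 in the transcript of BRD3, with 4 mismatches over 19 bases. Sequences #2, #3 and #18 had at least 5 mismatches with every member other than BRDT. The 7 bases in capitals occurred 2 times in the 3′ untranslated region of CCNT1 and 1 time in that of CCNT2 for TP63 #8, 1 time in that of BRD3 for TP63 #5, and 1 time in that of CCNT2 for BRDT #2. They did not occur in that of any other member, for any of the 7 sequences. Among 2719 such regions of 3000 to 6000 nt, which spans those of CCNT1, CCNT2 and BRD3, 27.6% held the bases of TP63 #8 at least once and 5.81% at least 2 times, 18.3% held those of TP63 #5 and 18.4% those of BRDT #2. These are matches of letters, and their part in the fold changes of CCNT1, CCNT2 and BRD3 was not tested.

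The member genes differ in size and base composition, which bears on their values. The transcripts used were 2483 nt for CDK9 (chr9:127785679-127790792), 3310 nt for BRDT, 3625 nt for HEXIM1 (chr17:45148475-45152099, a single exon) and 4956 nt for BRD2 (chr6:32968594-32981505). Those of BRD3 (chr9:134030305-134068535), CCNT1 (chr12:48688458-48716998) and CCNT2 (chr2:134918235-134959342) had 5661, 6788 and 6920 nt. CCNT2, CCNT1 and BRDT were the poorest in G and C (37.0%, 40.3% and 38.9%), and CDK9 and BRD2 the richest (both 55.1%). BRD2 overlaps HLA-DMA on the opposite strand, BRD3 overlaps BRD3OS, CCNT2 overlaps CCNT2-AS1 and HEXIM1 overlaps HEXIM2-AS1, also on the opposite strand. Reads of such pairs cannot be told apart without strand, and the counting setting was not given in the sources used here. CCNT1 and BRDT overlap no annotated gene.

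In the RefSeq promoter table (GRCh38.p14, 250 bases before to 50 after each start site), HEXIM1 and BRDT held a TATAAA motif on either strand, which 11.5% of 35116 promoters did. The promoter of HEXIM1 is shown because this gene has 1 entry in the table and carries its TATA box at position -29. Capitals mark the TATA box (TATAAA), the GC box (GGGCGG) and the CCAAT box, each on either strand, in the 250 bases before the start (chr17:45148225-45148474, plus strand).
HEXIM1: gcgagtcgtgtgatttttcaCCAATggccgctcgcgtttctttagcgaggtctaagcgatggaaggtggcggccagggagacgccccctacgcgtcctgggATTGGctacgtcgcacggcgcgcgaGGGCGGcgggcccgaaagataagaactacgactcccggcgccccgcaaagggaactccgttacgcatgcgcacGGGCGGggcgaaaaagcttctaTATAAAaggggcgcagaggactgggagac

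The GC box was present at 1 or more start sites of all 7 members, against 45.0% of promoters. CCAAT was found for BRDT, CCNT1, CCNT2 and HEXIM1, against 34.6% of promoters. CACGTG, an E-box that reads the same on both strands, was found for BRDT and CCNT1, against 7.26%. A match describes the letters of the window and not a site in use.

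In order to compare the members with each other, levels in control libraries were expressed as RPKM, that is RPM per kilobase of transcript. BRD2, CDK9 and HEXIM1 were the highest members in each of the 5 control groups, and the cyclins were far below their kinase. CDK9 has the shortest transcript of the members, and the cyclins have the longest. The balance of long and short transcripts differed between control groups, as given below, and its part in these orders was not tested. In TE6 siCont, HEXIM1 led with 72.7 ± 2.40 RPKM (SD, n = 2), above BRD2 (61.9 ± 2.04), CDK9 (17.4 ± 0.0717) and BRDT (6.47 ± 0.0520). CCNT1 stood at 4.92 ± 1.05, and CCNT2 (3.15 ± 0.261) and BRD3 (2.87 ± 0.222) did not separate. In KYSE180 siCont(BRDT-KD), BRD2 led with 66.9 ± 2.46 RPKM (SD, n = 3), followed by CDK9 (48.0 ± 0.790). HEXIM1 (31.7 ± 2.46) and BRDT (29.0 ± 1.94) overlapped, and BRD3 (15.4 ± 0.712), CCNT1 (8.89 ± 0.700) and CCNT2 (4.68 ± 0.226) followed in that order. KYSE150 cont had BRD2 at 52.9 ± 7.84 and CDK9 at 47.3 ± 2.11 RPKM (SD, n = 3), whose ranges overlapped, then HEXIM1 at 28.6 ± 1.235 and CCNT1 at 15.03 ± 2.22. BRD3 (7.35 ± 1.53) and CCNT2 (6.78 ± 0.578) overlapped there, and BRDT was last with 0.208 ± 0.105 RPKM. In the remaining control groups CDK9 led, with 40.8 ± 0.447 RPKM in KYSE180 siCont(TP63-KD) and 50.6 ± 2.38 in KYSE150 siCont (SD, n = 2). BRD2 had 28.4 ± 0.400 and 21.2 ± 3.12 in these groups, and HEXIM1 27.2 ± 2.26 and 24.2 ± 2.32. The leading member of KYSE180 thus differed between experiments. The summed cyclins stood to CDK9 as 0.283 in siCont(BRDT-KD) and 0.0857 in siCont(TP63-KD) of that line.

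**Figure D1:**
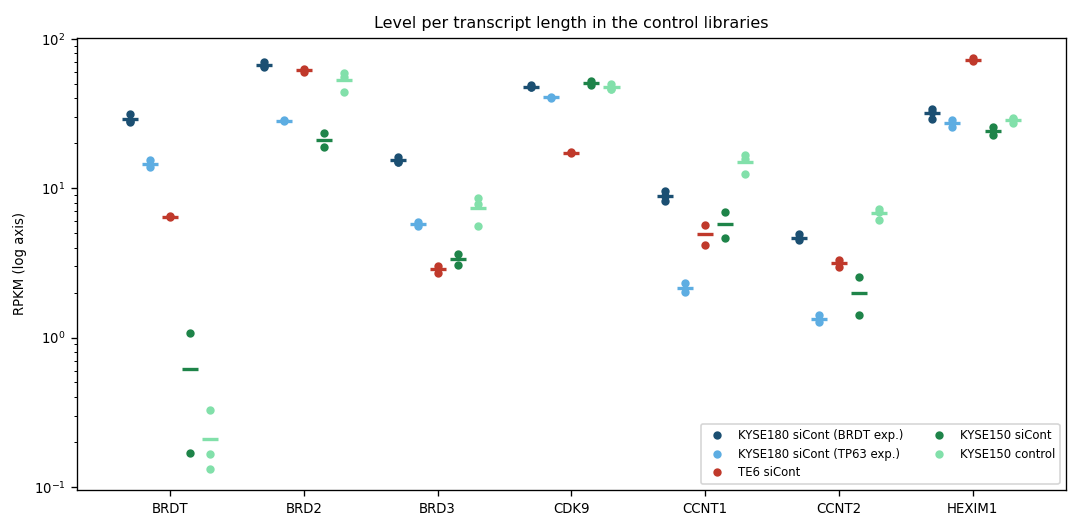
Level of each member in the control libraries, in RPKM on a log axis; points are libraries, bars are group means and colours are the 5 control groups. BRDT ran from 0.131 RPKM in KYSE150 to 31.2 RPKM in KYSE180, and HEXIM1 was highest and CDK9 lowest in TE6.

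The balance between the inhibitor and its kinase set TE6 apart from the other lines. The ratio of HEXIM1 to CDK9 in RPKM was 4.08 and 4.30 in the TE6 siCont libraries, whereas it lay between 0.432 and 0.712 in all 10 control libraries of KYSE180 and KYSE150. The ratio was 3.27 in both TE6 siBRDT libraries, and 2.43 and 2.48 in TE6 siTP63, in each case below the controls. Under siTP63 in the other lines it lay above the controls, without overlap. It was 0.859 and 0.943 against 0.712 and 0.623 in KYSE180, and 0.614 and 0.596 against 0.432 and 0.528 in KYSE150. BRDT-OE had 0.536 to 0.551, below the 0.581 to 0.647 of its controls. CCNT1 exceeded CCNT2 by 1.41 to 3.25 times in the control libraries. Among the reads per kilobase of the 3 BET genes, BRDT took 26.03% ± 0.670 (SD, n = 3) in KYSE180 siCont(BRDT-KD) and 30.0% ± 1.35 (SD, n = 2) in siCont(TP63-KD). It took 9.09% ± 0.298 (SD, n = 2) in TE6 siCont and 0.335% ± 0.127 (SD, n = 3) in KYSE150 cont. The 2 KYSE150 siCont libraries stood at 0.619% and 4.64%, or 2.63% ± 2.84 (SD, n = 2). These shares and ratios are descriptions, without a test.

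Libraries differed in the balance of long and short transcripts, and this difference moved with the groups. The measure was the median log2 RPM of the genes with the longest transcripts (long-transcript class, at least 5184 nt) minus that of the genes with the shortest (short-transcript class, up to 2018 nt), among 10247 genes. It was -0.639 and -0.563 in TE6 siCont, -1.41 and -1.48 in siBRDT and -1.27 and -1.18 in siTP63, with no overlap. In KYSE180 it was -1.64 and -1.65 in siCont(TP63-KD) and -0.871 and -0.574 in siTP63, again without overlap. It overlapped between groups in the KYSE180 BRDT experiment (0.293 to 0.513 and 0.00870 to 0.391), in KYSE150 siTP63 and in BRDT-OE. Controls of 1 line also differed between experiments: CCNT1 was 4.12-fold and CCNT2 3.49-fold higher in RPKM in siCont(BRDT-KD) than in siCont(TP63-KD) of KYSE180, but CDK9 only 1.18-fold. The long-transcript class was 2.69-fold higher in the same ratio and the short-transcript class 0.658-fold. The summed level of the 6 squamous markers also moved with the groups, from 6898 to 7149 RPM in TE6 siCont to between 4292 and 4569 in siBRDT and between 1424 and 1545 in siTP63, and in KYSE180 from 7451 to 7975 RPM to between 4698 and 4851 in siBRDT. The summed level of PTPRC, PECAM1 and COL1A1 (immune, endothelial and fibroblast markers) lay between 3.29 and 94.5 RPM in all libraries. COL1A1 made up nearly all of it (3.29 to 94.3 RPM), as PTPRC reached at most 0.357 RPM and PECAM1 at most 0.725 RPM in any library. The sum was 64.1 to 73.9 RPM in KYSE180 siTP63 against 32.8 to 35.6 in its controls, and 4.03 to 4.59 in BRDT-OE against 8.47 to 9.63, with no overlap in either. The part of these levels in the results was not tested. Levels are compared within experiments, and fold changes are also given trend-removed, that is after the dependence of a library's values on length and GC content of the transcripts had been subtracted.

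**Figure D2:**
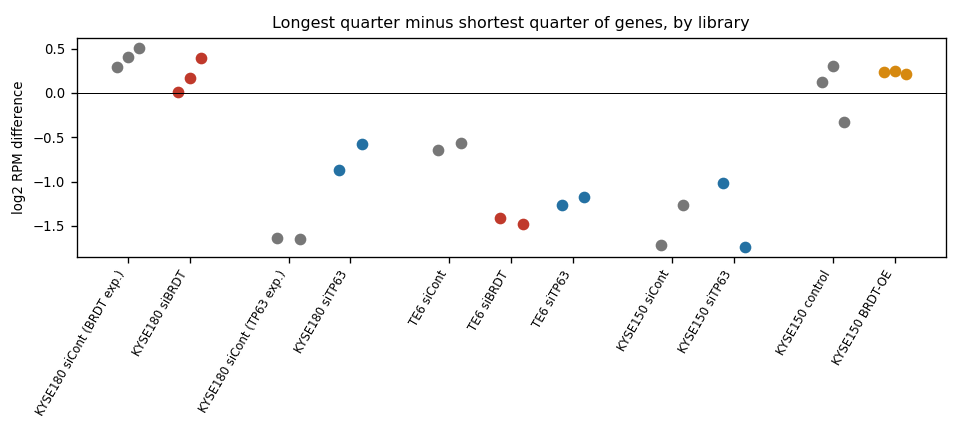
Median log2 RPM of the long-transcript class minus that of the short-transcript class, with 1 point per library. TE6 siCont libraries lie above all siBRDT and siTP63 libraries of that line, and KYSE180 siTP63 libraries lie above their controls.

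BRDT, the gene targeted by siBRDT, was examined first. Normalised values (read counts divided by a size factor of the library) were 1017, 1043 and 1136 in KYSE180 siCont(BRDT-KD) and 132, 147 and 198 in siBRDT, a log2 fold change of -2.75 (SE 0.12, adjusted p = 2.6e-10). TE6 had 241 and 242 in siCont and 55.0 and 46.6 in siBRDT, a log2 fold change of -2.23 (SE 0.16, adjusted p = 1.7e-06). Groups did not overlap in either line, and the share of BRDT among the 3 BET genes was 5.18% ± 0.834 (SD, n = 3) in KYSE180 and 2.68% ± 0.917 (SD, n = 2) in TE6. BRDT-OE took BRDT from 8.13, 16.0 and 6.58 to 15871, 15927 and 17542, or from between 6 and 17 reads to at least 12475 reads. Its share of the 3 BET genes was then 86.0% ± 0.962 (SD, n = 3). Under siTP63, BRDT was at 760.0 and 825 in KYSE180 against 789.6 and 850.1, and at 233 and 220.5 in TE6 against 241 and 242, neither of which was called (log2 fold changes of -0.05, adjusted p = 0.78, and -0.09, adjusted p = 0.67). In RPM, BRDT of KYSE180 was at 62.9 and 71.9 in siTP63 against 45.6 and 51.3, without overlap. In KYSE150, BRDT had 41 and 7 reads in siCont and 0 and 8 in siTP63, where a count of 0 allows up to 3 reads by counting error alone. Its log2 fold change of -2.81 (95% interval -6.28 to 0.66) rested on these few reads and ran from -4.58 to -1.04 as single libraries were left out (without siCont replicate 1 its mean was too low to be tested). It was called without siCont replicate 2 (-4.18) and without siTP63 replicate 2 (-4.58). TP63 was lower in each siTP63 group, without overlap, with log2 fold changes of -1.70 in KYSE180, -4.45 in TE6 and -2.34 in KYSE150. The KYSE150 difference was not called over all genes (adjusted p = 0.082). TP63 was also lower under siBRDT. KYSE180 had 9399.6, 9933 and 10366 in siCont(BRDT-KD) and 5924, 6724 and 7223 in siBRDT, a log2 fold change of -0.58 (SE 0.074, adjusted p = 8.8e-06) that was -0.46 after trend removal and then not called. TE6 had 2596 and 2785 against 1282 and 1147, a log2 fold change of -1.15 (SE 0.12, adjusted p = 2.0e-05) that was -0.76 and called after trend removal.

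**Figure D3:**
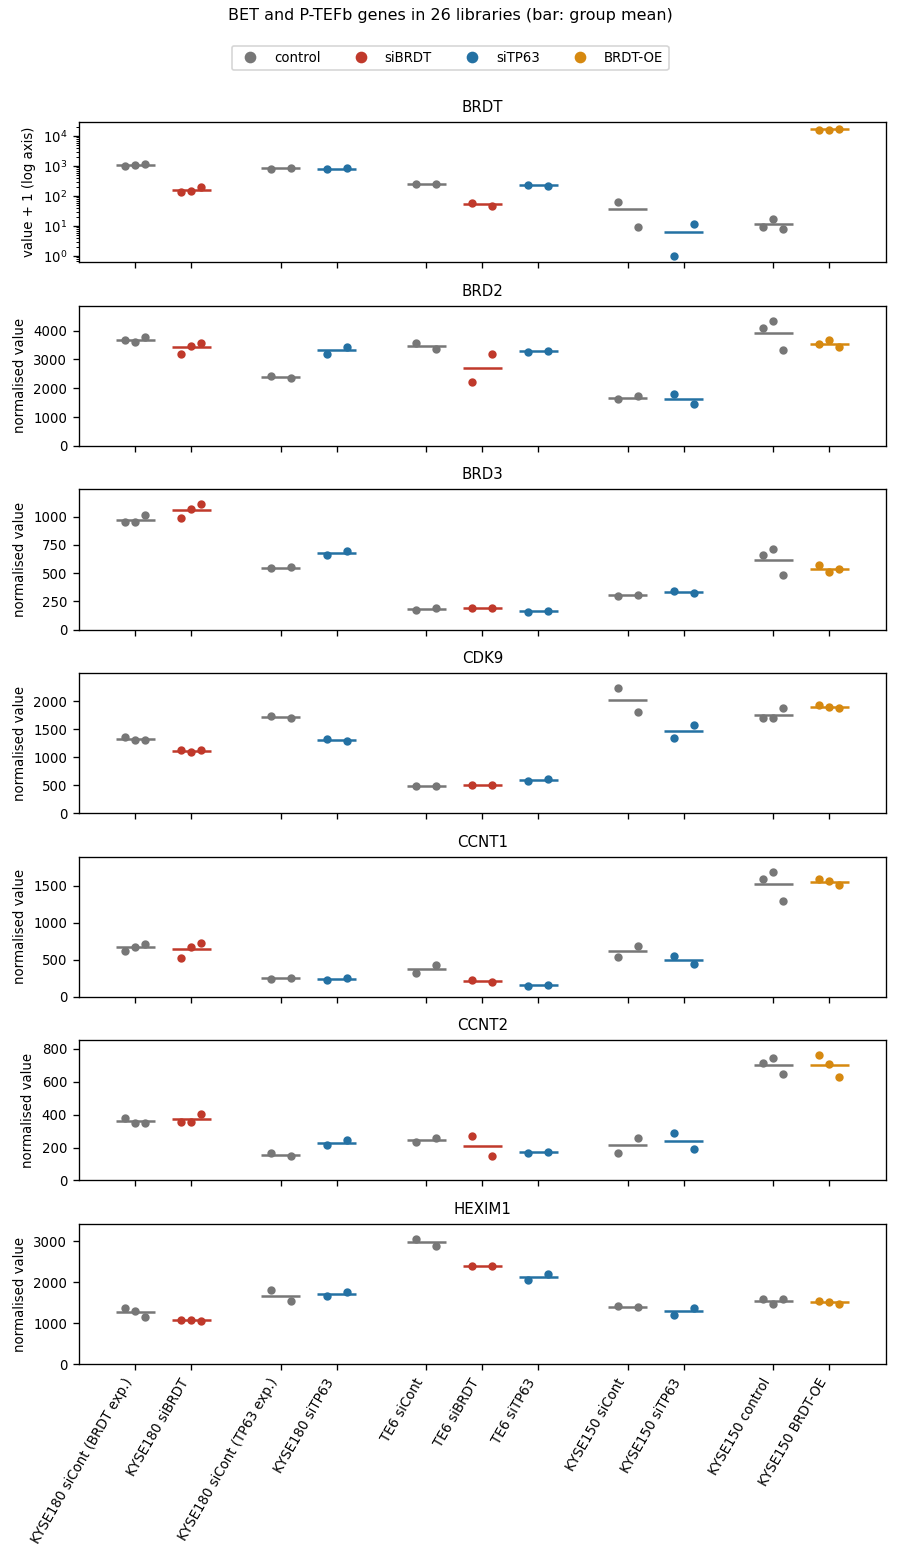
Normalised value of each member in the 26 libraries (points) with group means (bars); BRDT is drawn as value + 1 on a log axis and the others on linear axes from 0. BRDT separates under siBRDT and BRDT-OE, CCNT1 drops in TE6 under both siRNAs, and values of different experiments were normalised separately.

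Loss of BRDT in KYSE180 was compared with siCont(BRDT-KD) to ask whether the other BET genes or P-TEFb moved with it. Genes were called where the adjusted p was under 0.05 and the log2 fold change reached 0.5 in either direction. Of the 7 members, only BRDT was called, whereas 30.3% of the 13589 genes tested were (29.9% after trend removal, with the same single member). CDK9 had 1351, 1314 and 1301 in siCont and 1134, 1082.5 and 1124 in siBRDT, so that groups did not overlap. Its log2 fold change was -0.25 (SE 0.062, adjusted p = 0.0030), which is under the fold limit. HEXIM1 had 1366, 1307 and 1156 in siCont and 1089, 1073 and 1060.3 in siBRDT, also without overlap, and a log2 fold change of -0.25 (SE 0.071, adjusted p = 0.0083). Both values had the same sign after trend removal (-0.29 and -0.21). The ratio of HEXIM1 to CDK9 was 0.661 ± 0.0456 in siCont and 0.661 ± 0.0167 in siBRDT (SD, n = 3 each).

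The other BET genes and the cyclins stayed close to their controls in KYSE180. BRD2 had 3658, 3587 and 3792 in siCont and 3194, 3480.2 and 3576 in siBRDT, which did not overlap, with a log2 fold change of only -0.11 (95% interval -0.24 to 0.02). BRD3 had 949, 948 and 1012 against 991, 1065 and 1106, which overlapped, with 0.12 (95% interval -0.03 to 0.26). CCNT1 had 617, 677 and 714 against 524, 671 and 727, or -0.07 (95% interval -0.30 to 0.15). CCNT2 had 379.8, 347 and 351 against 354, 355 and 403, or 0.04 (95% interval -0.14 to 0.23). The intervals of these 4 genes exclude a log2 change of 0.5 in either direction.

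In TE6, siBRDT lowered CCNT1 in addition to BRDT. Of the 7 members 2 were called, beside 33.7% of 13333 genes, and 1 after trend removal, beside 22.0%. CCNT1 had 321 and 432 in siCont and 228 and 195 in siBRDT, with no overlap, and its log2 fold change was -0.82 (SE 0.17, adjusted p = 0.0018). The call was lost without siCont replicate 2 (-0.61, adjusted p = 0.056), after trend removal (-0.35, adjusted p = 0.064) and with equal upper quartiles (-0.54, adjusted p = 0.15). The long-transcript class had a median log2 fold change of -0.38 in this comparison, and the short-transcript class 0.40. CCNT2, the other cyclin, had 232 and 259 in siCont and 272 and 152 in siBRDT. One siBRDT library thus lay above both controls and the other below, and the log2 fold change was -0.27 (95% interval -0.75 to 0.21). It was called without siBRDT replicate 1 (-0.69) and turned to 0.15 without siBRDT replicate 2.

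HEXIM1 and BRD2 were lower in TE6 siBRDT by less than the fold limit. HEXIM1 had 3051 and 2893 in siCont and 2393 and 2406 in siBRDT, without overlap, a log2 fold change of -0.31 (SE 0.093, adjusted p = 0.017) that was -0.14 after trend removal. BRD2 had 3551 and 3367 against 2229 and 3197, a log2 fold change of -0.37 (SE 0.14, adjusted p = 0.040) carried by siBRDT replicate 1. Without siBRDT replicate 1 it was -0.11, and without siBRDT replicate 2 it was -0.63 and called. CDK9 was at 486 and 486 in siCont and 502 and 504 in siBRDT, without overlap but with a log2 fold change of 0.05 (95% interval -0.20 to 0.29). BRD3 was at 174 and 193 against 187 and 191 (0.04, 95% interval -0.28 to 0.37).

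Knockdown of TP63 was compared with its controls in each of the 3 lines. As TP63 was lower under siBRDT too in KYSE180 and TE6, the values of both knockdowns are given side by side without a comparison of their sizes. In KYSE180, 1 of 7 members was called, beside 49.3% of 13924 genes, and 0 after trend removal, beside 44.4%. CCNT2 had 168 and 146 in siCont(TP63-KD) and 216 and 245 in siTP63, without overlap, a log2 fold change of 0.55 (SE 0.18, adjusted p = 0.0094). The call was lost without siCont replicate 2 (0.45), without siTP63 replicate 2 (0.46) and after trend removal (0.15), and the median of the long-transcript class was 0.32. BRD2 had 2414 and 2357 in siCont and 3196 and 3442 in siTP63, without overlap, a log2 fold change of 0.47 (SE 0.14, adjusted p = 0.0054). This lay just under the fold limit and was called with equal upper quartiles (0.69), with edgeR (0.53) and without siTP63 replicate 1 (0.53). BRD3 had 544 and 553 against 659.6 and 699, also without overlap, and 0.31 (SE 0.14, adjusted p = 0.068).

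CDK9 lay on the other side in the same KYSE180 libraries. It had 1739.6 and 1691 in siCont and 1327 and 1284 in siTP63, without overlap, a log2 fold change of -0.39 (SE 0.14, adjusted p = 0.016) that was -0.35 after trend removal (adjusted p = 0.0090). HEXIM1 had 1807 and 1538 against 1663 and 1767, so that both siTP63 values lay within the controls, and 0.04 (95% interval -0.25 to 0.33). CCNT1 had 236 and 259.8 against 232 and 257, or -0.02 (95% interval -0.36 to 0.32). These readings depend on the normalisation, as in RPM all 7 members lay above their controls, without overlap. HEXIM1 then had 104 and 92.8 in siCont and 138 and 154 in siTP63, and CCNT1 had 13.6 and 15.7 against 19.2 and 22.4. The ratio of CCNT1 to CCNT2 in RPKM was 1.43 and 1.82 in siCont and 1.07 and 1.10 in siTP63.

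In TE6, CCNT1 was also lower under siTP63. Of the 7 members, CCNT1 alone was called, beside 38.9% of 13333 genes, and it alone after trend removal, beside 33.3%. It had 149 and 163 in siTP63 against 321 and 432, without overlap, a log2 fold change of -1.25 (SE 0.17, adjusted p = 6.6e-05). After trend removal it was -0.84 and still called (adjusted p = 4.1e-04), and it was called in all 15 alternatives. CCNT2 had 167 and 173 against 232 and 259, without overlap, and -0.53 (SE 0.22, adjusted p = 0.063). Its value was called when the 2 groups were fitted alone (adjusted p = 4.2e-04), and without either siBRDT library, which enter only through the common spread. After trend removal CCNT2 was at -0.01. HEXIM1 had 2056 and 2196 against 3051 and 2893, without overlap, a log2 fold change of -0.48 (SE 0.093, adjusted p = 9.3e-04) that lay just under the fold limit. It was -0.42 after trend removal, and called without siCont replicate 2 (-0.52) and without siTP63 replicate 2 (-0.53). CDK9 was the member on the upper side, with 581 and 607 against 486 and 486, a log2 fold change of 0.29 (SE 0.11, adjusted p = 0.049) that was 0.13 after trend removal. BRD2 had 3262 and 3288 against 3551 and 3367 (-0.08, 95% interval -0.37 to 0.22), and BRD3 had 156 and 166 against 174 and 193 (-0.19, 95% interval -0.51 to 0.14).

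In KYSE150, none of the 7 members was called under siTP63, and limma called 0% of 12335 genes. The unadjusted p was under 0.05 for 2194 genes, and edgeR called 0 and DESeq2 461. CDK9 had 2230.3 and 1799 in siCont and 1345 and 1579.8 in siTP63, without overlap, a log2 fold change of -0.46 (95% interval -0.99 to 0.07). CCNT1 had 539 and 691 against 545 and 446, and CCNT2 169 and 260.3 against 290.0 and 189, each with overlap. BRD2 had 1614 and 1715 against 1797 and 1465, which overlapped. HEXIM1 had 1406 and 1388 against 1207 and 1375, and BRD3 298 and 306 against 338 and 322, neither with overlap. Their log2 fold changes lay between -0.31 and 0.16, and their intervals reached 0.5 in at least 1 direction, so that changes of that size were not excluded. After trend removal 10.8% of genes were called, and still no member.

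Overexpression of BRDT in KYSE150 left the other members near their controls. BRDT itself was called, as the gene that was introduced, and no other member, beside 26.5% of 12765 genes (27.3% after trend removal). CDK9 had 1689, 1699.7 and 1875 in cont and 1927, 1894 and 1879 in BRDT-OE, without overlap, but the log2 fold change was only 0.12 (95% interval -0.04 to 0.27). BRD2 had 4073, 4335 and 3318 against 3524, 3654 and 3424 (-0.14, 95% interval -0.35 to 0.08), and BRD3 659.5, 716 and 483 against 573, 507 and 539 (-0.18, 95% interval -0.48 to 0.11). CCNT1 had 1585, 1686 and 1292 against 1589.6, 1557 and 1513 (0.04, 95% interval -0.17 to 0.25). CCNT2 had 713, 742 and 645 against 760.0, 709.5 and 631 (-0.00085, 95% interval -0.21 to 0.21). HEXIM1 had 1596, 1461 and 1591 against 1551, 1510.4 and 1469 (-0.04, 95% interval -0.19 to 0.12). The intervals of all 6 exclude a log2 change of 0.5 in either direction.

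**Figure D4:**
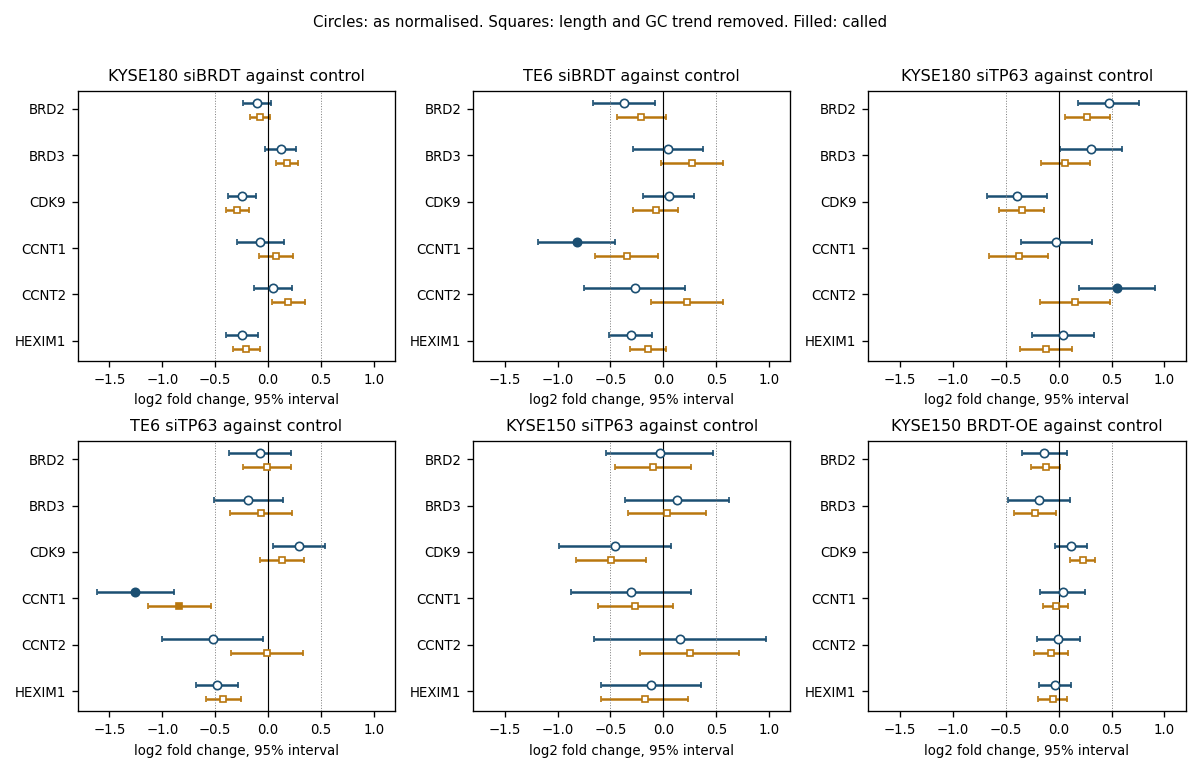
Log2 fold changes of the 6 members other than BRDT with 95% intervals in the 6 comparisons; circles are values as normalised, squares are values after trend removal, and filled symbols were called. CCNT1 in TE6 under siTP63 is the only value filled under both; CCNT1 in TE6 under siBRDT and CCNT2 in KYSE180 under siTP63 are filled only as normalised.

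Differences between cell lines were tested as contrasts of 2 fold changes, each taken within its own table, at an adjusted p under 0.05. For siBRDT, CCNT1 was the only member whose fold change differed between KYSE180 and TE6, by 0.75 (SE 0.22, adjusted p = 0.018), beside 24.9% of genes. After trend removal the difference was 0.44 (adjusted p = 0.020), beside 29.4% of genes. The adjusted p was above 0.05 without KYSE180 siBRDT replicate 3 (0.052), TE6 siCont replicate 2 (0.14) or TE6 siBRDT replicate 2 (0.071), and with equal upper quartiles (0.16). For HEXIM1 and BRD3 the siBRDT fold changes of both lines differed by 0.06 (95% interval -0.20 to 0.33) and 0.08 (95% interval -0.28 to 0.43).

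For siTP63, 6 of 7 members differed between KYSE180 and TE6, against 52.6% of genes. CCNT1 differed by 1.23 (SE 0.24, adjusted p = 2.9e-04) and CCNT2 by 1.08 (SE 0.31, adjusted p = 0.0067), both higher in KYSE180. CDK9 differed by -0.68 (SE 0.14, adjusted p = 4.4e-04), as its normalised values lay below the controls in KYSE180 and above them in TE6. In RPM, CDK9 lay above the controls in both lines. BRD2 (0.55, adjusted p = 0.021), BRD3 (0.49, adjusted p = 0.032) and HEXIM1 (0.52, adjusted p = 0.0036) also differed. Of 15 alternatives, BRD3 failed in 7, BRD2 in 4, and HEXIM1 and CCNT2 in 1 each (trend removal). The median of the long-transcript class had opposite signs in these 2 experiments (0.32 and -0.29). After trend removal 2 members passed, CDK9 at -0.47 (adjusted p = 7.4e-04) and CCNT1 at 0.48 (adjusted p = 0.014), beside 46.5% of genes.

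Against KYSE150, siTP63 in TE6 differed for CDK9 by 0.75 (SE 0.14, adjusted p = 7.9e-04) and for CCNT1 by -0.95 (SE 0.24, adjusted p = 0.0075), beside 24.7% of genes. Both differences passed after trend removal (0.64 and -0.57), where BRDT, with its few KYSE150 reads, passed as well, beside 29.3% of genes. CCNT1 no longer passed without TE6 siCont replicate 2 (-0.73) or without KYSE150 siCont replicate 1 (-0.77). Between KYSE180 and KYSE150, BRDT (2.76, adjusted p = 0.044) and BRD2 (0.51, adjusted p = 0.048) passed, beside 32.2% of genes, and neither passed after trend removal, beside 35.6%. BRDT ran from 0.99 to 4.53 as libraries were left out and failed in 8 of 12 alternatives, and BRD2 ran from 0.36 to 0.66 and failed in 9 of 13. CDK9 differed by 0.06 (95% interval -0.23 to 0.35) between these 2 lines.

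The other genes of the elongation pathway were taken as 5 lists of 31 genes: the 7SK partners of HEXIM1, the super elongation complex, the pausing factors DSIF and NELF, the PAF1 complex with SPT6, and other transcription kinases with their cyclins. Under siBRDT in KYSE180, 8 of the 31 were called higher and 0 lower, against 14.5% and 15.8% of all genes, and the median log2 fold change was 0.16 against -0.01 over all genes. EAF2, a partner of the ELL elongation factors, rose from 39.6 ± 5.54 to 80.3 ± 7.57 (SD, n = 3 in both groups), or 1.01 on the log2 scale (adjusted p = 1.1e-04). ELL3 rose by 0.79 (adjusted p = 1.8e-05) and NELFCD, a subunit of the NELF pausing factor, by 0.69 (adjusted p = 1.8e-07). Of the 3 partners of HEXIM1, HEXIM2 and MEPCE, the capping enzyme of 7SK RNA, were called higher (0.54 and 0.63), and HEXIM2 was not called after trend removal (0.42). After trend removal the list had 6 higher and 0 lower, beside 1964 and 2014 of all genes.

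Under siBRDT in TE6, 3 of the 31 rose and 4 fell, against 15.6% and 18.1% of all genes. HEXIM2, the paralog of HEXIM1, rose from 411 ± 26.8 to 829 ± 18.9 (SD, n = 2 in both groups), or 1.01 on the log2 scale (adjusted p = 2.4e-05), and 0.51 after trend removal. EAF2 rose by 1.02 (adjusted p = 0.014) and MEPCE by 0.57 (adjusted p = 0.0038), neither of which was called after trend removal. The list then had 2 higher and 2 lower, beside 1379 and 1490 of all genes. With equal upper quartiles the same list had 7 genes higher and 0 lower, as that scaling moved the median of all genes from -0.04 to 0.24 and the share of higher genes among all calls from 46.2% to 82.2%. Under siTP63 in TE6, 2 rose and 5 fell, against 18.3% and 20.6%. EAF2 rose by 1.28 (adjusted p = 0.0035) and HEXIM2 by 1.04 (adjusted p = 1.1e-05). CTR9 of the PAF1 complex fell from 879 ± 30.5 to 408 ± 14.1 (SD, n = 2 each), by 1.11 on the log2 scale (adjusted p = 6.6e-06), and AFF1, a scaffold of the super elongation complex, fell by 1.08 (adjusted p = 1.1e-04). After trend removal 5 were higher and 3 lower, beside 2110 and 2246 of all genes. HEXIM2 and HEXIM1 thus stood on opposite sides in TE6 under both siRNAs, although HEXIM1 was not called.

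Under siTP63 in KYSE180, 6 of the 31 rose and 6 fell, against 23.6% and 25.7% of all genes. NELFE fell from 5942 ± 554 to 2957 ± 275 (SD, n = 2 each), by 1.01 on the log2 scale (adjusted p = 2.7e-06), and PAF1 fell by 0.95 (adjusted p = 1.7e-05). Of the 9 genes of the super elongation complex list, 4 were called higher and 0 lower, and after trend removal 2 and 0. The median of the 31 was -0.15. After trend removal 2 of the 31 were higher and 6 lower, beside 2691 and 3344 of all genes. Equal upper quartiles gave 8 higher and 3 lower, with the median of all genes moved from 0.00064 to 0.22 and the share of higher calls from 47.9% to 64.6%. In KYSE150, siTP63 gave no call, and 2 higher and 1 lower after trend removal, beside 524 and 780 of all genes. BRDT-OE gave 2 higher and 1 lower, against 10.5% and 16.0% of all genes. MEPCE rose from 1368 ± 87.5 to 2187 ± 37.7 (SD, n = 3 each), by 0.68 on the log2 scale (adjusted p = 4.0e-05), while HEXIM2 fell by 0.77 (adjusted p = 7.1e-04), a value of -0.49 after trend removal. Equal upper quartiles gave 1 higher and 2 lower of the 31 there, with the share of higher calls at 28.4% against 39.7%.

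The 29 other bromodomain genes, whose proteins carry a bromodomain but lie outside the BET family, were counted in the same way. Under siBRDT 6 were lower and 0 higher in KYSE180, against 15.8% and 14.5% of all genes, and 11 were lower and 0 higher in TE6, against 18.1% and 15.6%, with median log2 fold changes of -0.04 and -0.45 against -0.01 and -0.04 over all genes. The rest of the list, 23 and 18 genes, was not called. After trend removal 5 were lower and 0 higher in KYSE180 and 6 and 0 in TE6, and the medians were 0.04 and -0.22. Over all genes, 2014 were then lower and 1964 higher in KYSE180, and 1490 and 1379 in TE6. As single libraries were left out, TE6 gave 10 to 18 calls, the highest without siBRDT replicate 1. KAT2B, an acetyltransferase, fell in KYSE180 from 321 ± 38.4 to 116 ± 10.2 (SD, n = 3 each), or -1.46 on the log2 scale (adjusted p = 6.4e-08). BAZ2B and BAZ1A, subunits of chromatin remodelers, fell in both lines, with log2 fold changes of -0.78 and -0.72 in KYSE180 and -1.37 and -1.18 in TE6, and remained called after trend removal. TAF1 of the general factor TFIID fell by 1.07 in TE6. Under siTP63, KYSE180 had 18 higher and 6 lower, against 23.6% and 25.7%, with CECR2 (1.56), KAT2B (1.11) and BRPF3 (1.11) rising most and TRIM28 falling by 0.97, whereas TE6 had 0 higher and 5 lower, against 18.3% and 20.6%, with BAZ1A at -1.04. After trend removal KYSE180 had 11 higher and 7 lower, and TE6 0 and 4. Over all genes, 2691 were then higher and 3344 lower in KYSE180, and 2110 and 2246 in TE6. Under BRDT-OE 2 of 28 rose, against 10.5% of all genes, PBRM1 (0.75) and EP300 (0.56), and EP300 was not called after trend removal. Equal upper quartiles gave 2 higher and 5 lower under siBRDT in TE6, 19 and 1 under siTP63 in KYSE180, and 1 and 1 under BRDT-OE. Over all genes, that scaling gave 2716 higher and 588 lower, 4660 and 2554, and 966 and 2436, in the same order. In KYSE150 under siTP63 none of 28 was called.

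**Figure D5:**
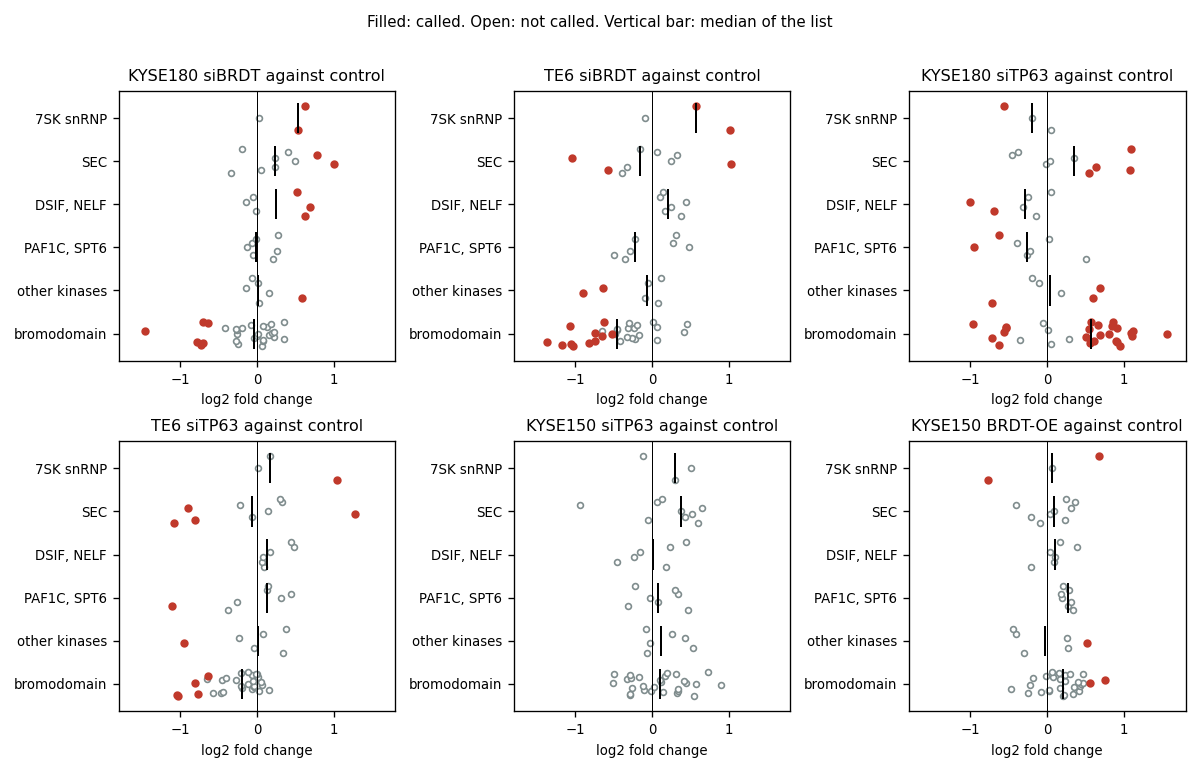
Log2 fold changes of the 31 elongation genes in 5 lists and of the other bromodomain genes in the 6 comparisons, as normalised; filled points were called and vertical bars are medians of the lists. SEC is the super elongation complex and PAF1C the PAF1 complex. Calls of the bromodomain genes lie below 0 under siBRDT and mostly above 0 under siTP63 in KYSE180.

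Across the 6 comparisons, the genes with the smallest root mean square difference from a member were listed among 11337 genes tested in all 6. ANXA1 (0.0442 on the log2 scale) and RNF123 (0.0594) were nearest to BRD2, PRDX3 (0.0524) and UBE2E1 (0.0647) to HEXIM1, and STXBP3 (0.0752) and VPS13D (0.0792) to CCNT2. NMD3 (0.0862) and RACGAP1 (0.106) were nearest to CCNT1, and H3F3B (0.0967) and EIF2B2 (0.108) to CDK9. The median distance of all genes from these members was between 0.558 and 0.769. With 6 values per gene and shared TE6 controls, this is a description of likeness only.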

How the data were processed

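Per the study's methods and the submitters' processing notes, libraries were made with a TruSeq RNA V2 kit, and reads were mapped to hg38 (STAR 2.6.0), counted per gene (HTSeq 0.11.2) and normalised (DESeq2 1.24.0). The annotation and the strand setting were not given in the sources used here. The deposited values are a normalised signal, that is counts divided by a size factor set within each experiment by the authors. In each library, 100% of values divided by the step of 1 read came out whole (tolerance 0.1 reads), which gave back the read counts. Intervals of fold changes come from the spread between libraries, and only the limit given for a library without reads covers counting error alone.

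Fold changes were fitted with limma 3.58.1 in R 4.3.3 (lmFit, eBayes with trend) on log2(value + 1), which understates changes of low genes. Genes needed a mean of 10, and p-values were Benjamini-Hochberg adjusted over all genes tested. The TE6 groups shared 1 fit. Differences between lines were contrasts in a joint fit of all 26 libraries with a common spread. Alternatives were a pseudocount of 0.1, no filter, equal upper quartiles, a replicate block, no fold limit, tests of the recovered reads with edgeR 4.0.16 and with DESeq2 1.42.0, TE6 groups in pairs and each library left out. Subtraction of each library's dependence on length and GC content of transcripts (by splines, 4 degrees of freedom, genes with a known length) and a crossed pairing were added after the data were seen. Lengths were found for 24542 symbols (92.7%), 1381 of them through an older symbol. The fits were tested on simulated data, with the same spread setting for every gene and no difference in length balance between groups. Only for KYSE180 siBRDT was a length trend also added. The simulation thus does not cover the real length balance of TE6 and KYSE180 siTP63.

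Genes named besides the members are, per comparison, up to 3 called list genes with the largest rise and fall, the 2 genes most like a member, and TP63. HEXIM2 and MEPCE in KYSE180 under siBRDT were named after their values were seen. The members, lists and rules were chosen with earlier results of these data known.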

Additional observations from a re-analysis of the deposited data

Results flagged for a closer look

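The fold change of 1 siRNA differed between cell lines in 11 cases among the 7 genes and 4 contrasts, by the test of the difference itself. Of all genes, 24.9% passed in the siBRDT contrast. In the siTP63 contrasts 52.6% passed between KYSE180 and TE6, 32.2% between KYSE180 and KYSE150, and 24.7% between TE6 and KYSE150. For siBRDT, CCNT1 differed between KYSE180 and TE6 by 0.75 (adjusted p = 0.018).

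For siTP63 between KYSE180 and TE6, the differences were 0.55 for BRD2, 0.49 for BRD3, -0.68 for CDK9, 1.23 for CCNT1, 1.08 for CCNT2 and 0.52 for HEXIM1. Between KYSE180 and KYSE150 they were 2.76 for BRDT and 0.51 for BRD2. That of BRDT rested on few KYSE150 reads and failed in 8 of 12 alternatives, and that of BRD2 failed in 9 of 13. Between TE6 and KYSE150 the differences were 0.75 for CDK9 and -0.95 for CCNT1. All are log2 values from the limma contrasts, with the first line minus the second. The balance of long and short transcripts differed between treated and control libraries of TE6 and of KYSE180 siTP63, and 5 of the 11 differences passed after its trend was removed, those of CCNT1 in 3 contrasts and of CDK9 in 2.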

How the results depend on the processing

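BRDT under siBRDT and in BRDT-OE, and CCNT1 in TE6 under siTP63, kept direction and call in every alternative run. Without a fold limit, calls among the 7 genes were 3 in KYSE180 siBRDT, 4 in TE6 siBRDT, 3 in KYSE180 siTP63 and 3 in TE6 siTP63, and elongation calls 16, 14 and 15 in KYSE180 siBRDT, TE6 siBRDT and TE6 siTP63 and 16 in BRDT-OE. The share of all genes called in this way was not taken, so these counts cannot be read as particular to the lists. The unadjusted limma p was under 0.05 for 8515 of 13589 genes in KYSE180 siBRDT, 7069 of 13333 in TE6 siBRDT and 8774 of 13924 in KYSE180 siTP63. The same held for 7541 of 13333 genes in TE6 siTP63 and 7329 of 12765 in BRDT-OE. Equal upper quartiles gave 1 member in TE6 siBRDT and 3 in KYSE180 siTP63, beside 3304 and 7214 of all genes. With edgeR there were 2 in KYSE180 siTP63, beside 6985 of all genes. TE6 siTP63 fitted with its controls alone gave 2, and the share of all genes was not taken there. After trend removal (length and GC content) the calls were 1 in TE6 siBRDT, beside 22.0% of genes, and 0 in KYSE180 siTP63, beside 44.4%. Elongation calls were then 4 in TE6 siBRDT and 3 in KYSE150 siTP63, where 10.8% of genes were called. Differences for siTP63 were 2 (KYSE180 minus TE6), beside 46.5% of genes, and 0 (KYSE180 minus KYSE150), beside 35.6%. The latter was also 0 with a pseudocount of 0.1. The causes were not tested.

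Same-numbered libraries did not deviate together (correlations from -0.70 to 0.18), so the numbers were not taken to pair samples. A replicate block moved the calls over all genes from 4115 to 4175 (KYSE180 siBRDT), 4493 to 4442 (TE6 siBRDT), 6869 to 6799 (KYSE180 siTP63), 5184 to 5177 (TE6 siTP63), 0 to 137 (KYSE150 siTP63) and 3386 to 3433 (BRDT-OE). With this block 1 member was called in KYSE150 siTP63 (BRDT) and 0 differed between KYSE180 and KYSE150. With the KYSE150 numbers crossed, chosen after seeing the data, 3400 genes, 1 member and 5 elongation genes were called.

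Values that turned sign were all uncalled. Equal upper quartiles gave 0.0070 for CCNT2 in TE6 siBRDT, 0.17 for BRDT and 0.20 for CCNT1 in KYSE180 siTP63, 0.0042 for BRD2 in TE6 siTP63, 0.068 for BRD2 in KYSE150 siTP63, -0.042 for CCNT1 in BRDT-OE, and -0.14 for BRD3 and -0.16 for HEXIM1 in the siBRDT difference. edgeR gave 0.025 for CCNT1 in KYSE180 siTP63. Trend removal gave 0.072 for CCNT1 in KYSE180 siBRDT, 0.22 for CCNT2 and -0.074 for CDK9 in TE6 siBRDT, -0.12 for HEXIM1 in KYSE180 siTP63, 0.19 for BRDT in TE6 siTP63 and -0.029 for CCNT1 in BRDT-OE. In the differences it gave -0.040 for BRD3, -0.019 for HEXIM1 and -0.011 for CCNT2 (siBRDT), -0.45 for BRDT (siTP63, KYSE180 minus TE6), -0.093 for CCNT1 and -0.074 for CCNT2 (KYSE180 minus KYSE150) and 0.092 for BRD2 (TE6 minus KYSE150).

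Leaving out single libraries gave 1 to 3 members in TE6 siBRDT, 0 to 2 in KYSE180 siTP63, 1 to 2 in TE6 siTP63, 0 to 1 in KYSE150 siTP63 and 2 to 5 elongation genes in BRDT-OE. Differences numbered 0 to 1 (siBRDT), 4 to 6 (siTP63, KYSE180 minus TE6), 0 to 1 (siTP63, KYSE180 minus KYSE150) and 1 to 4 (TE6 minus KYSE150). Ranges that crossed 0 were -0.17 to 0.064 for CCNT1 and -0.016 to 0.085 for CCNT2 in KYSE180 siBRDT, -0.031 to 0.12 for BRD3 and -0.69 to 0.15 for CCNT2 in TE6 siBRDT, and -0.11 to 0.0094 for BRDT, -0.096 to 0.056 for CCNT1 and -0.076 to 0.16 for HEXIM1 in KYSE180 siTP63. They were -0.15 to 0.47 for CCNT2 and -0.18 to 0.11 for BRD2 in KYSE150 siTP63, and -0.062 to 0.072 for CCNT2 and -0.074 to 0.12 for CCNT1 in BRDT-OE. In the differences they were -0.0065 to 0.11 for HEXIM1 and -0.10 to 0.73 for CCNT2 (siBRDT), -0.017 to 0.10 for BRDT (siTP63, KYSE180 minus TE6), -0.091 to 0.22 for CDK9 (KYSE180 minus KYSE150) and -0.19 to 0.10 for BRD2 (TE6 minus KYSE150). A group reduced to 1 library was assumed to vary like the others. The share of all genes called was not taken as libraries were left out. Those counts thus cannot be read as particular to the members or the lists. BRDT in KYSE150 had 41 and 7 reads in its control libraries, and the cause of this spread was not tested.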
